A study of Homo sapiens with 4 samples.

Results

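The 42 genes described here encode ephrins, Eph receptors, semaphorins, plexins and a few Slit, Robo and netrin genes, and they were chosen by name from the 55764 genes listed in the expression table. All 42 names were found: 10 Eph receptors, 6 ephrins, 13 semaphorins, 7 plexins, SLIT2 and ROBO1, and the netrins NTN1 and NTN4 with the netrin receptors UNC5B and DCC. They were compared between 2 libraries of TE5 cells that stably overexpressed human ETS1, a transcription factor, and 2 libraries of TE5 cells with the empty backbone. TE5 is a line derived from human oesophageal squamous cell carcinoma. Per the labels' protocols, ETS1 was expressed from a CMV promoter, both constructs were delivered by lentivirus packaged in HEK293T cells, and total RNA was extracted from cultured cells. The labels do not say whether the 2 libraries of a group came from separately transduced pools or from separate cultures of 1 pool, so the p-values measure the spread between these libraries, which may be technical.

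Ephrins are membrane-bound ligands of the Eph receptor tyrosine kinases: the A ephrins are held by a lipid anchor and the B ephrins cross the membrane, so that signalling needs contact between cells. Semaphorins are secreted or membrane-bound ligands whose signals are carried by plexins, with neuropilins as co-receptors for most secreted class 3 members, while Slits signal through Robo receptors and netrins through DCC and UNC5 receptors. The families were named for steering axons, and in epithelia and carcinomas they are known for acting on cell adhesion, repulsion and migration.

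The promoters of the members with the largest falls (EPHA2, EFNA4) and the largest rises (SEMA4F, ROBO1) are printed here because ETS-family factors bind DNA around the letters GGAA. Each sequence is the 250 bases before a RefSeq gene start (GRCh38.p14), 5′ to 3′ on the strand of the gene, with GGAA, or TTCC where the match is on the other strand, in capitals. ROBO1 has 2 listed starts. In GENCODE 29 (GRCh38) EPHA2 spans chr1:16124337-16156087, EFNA4 chr1:155063731-155069553, SEMA4F chr2:74654228-74683853 and ROBO1 chr3:78597240-79767815, so the second ROBO1 stretch lies within the gene.
EPHA2, chr1:16156070-16156319, minus strand: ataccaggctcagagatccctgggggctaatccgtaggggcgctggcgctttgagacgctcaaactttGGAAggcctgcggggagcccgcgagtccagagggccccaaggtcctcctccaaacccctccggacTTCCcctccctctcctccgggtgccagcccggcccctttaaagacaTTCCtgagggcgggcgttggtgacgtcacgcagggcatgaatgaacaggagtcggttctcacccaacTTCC
EFNA4, chr1:155063490-155063739, plus strand: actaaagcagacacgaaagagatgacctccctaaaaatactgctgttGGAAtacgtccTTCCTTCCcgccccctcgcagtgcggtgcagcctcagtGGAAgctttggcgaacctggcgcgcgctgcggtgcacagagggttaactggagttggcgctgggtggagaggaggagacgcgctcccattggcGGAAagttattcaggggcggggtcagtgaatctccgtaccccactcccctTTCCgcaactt
SEMA4F, chr2:74653997-74654246, plus strand: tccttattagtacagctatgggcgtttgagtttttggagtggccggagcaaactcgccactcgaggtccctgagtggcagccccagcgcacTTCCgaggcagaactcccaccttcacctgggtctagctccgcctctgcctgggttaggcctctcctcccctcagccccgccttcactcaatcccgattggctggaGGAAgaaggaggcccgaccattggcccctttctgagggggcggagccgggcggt
ROBO1, chr3:79767999-79768248, minus strand: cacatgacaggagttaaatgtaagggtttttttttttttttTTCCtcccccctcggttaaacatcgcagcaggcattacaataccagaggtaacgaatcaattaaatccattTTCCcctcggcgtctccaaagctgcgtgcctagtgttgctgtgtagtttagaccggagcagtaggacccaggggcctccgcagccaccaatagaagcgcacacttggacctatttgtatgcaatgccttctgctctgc
ROBO1, chr3:79019460-79019709, minus strand: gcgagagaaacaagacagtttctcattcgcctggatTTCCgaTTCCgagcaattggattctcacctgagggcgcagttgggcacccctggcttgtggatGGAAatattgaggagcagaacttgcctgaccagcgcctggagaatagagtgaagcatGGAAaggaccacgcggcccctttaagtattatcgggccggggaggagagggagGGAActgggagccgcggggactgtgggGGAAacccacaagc

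EPHA2 holds 4 matches of GGAA on either strand in this stretch, EFNA4 holds 6, SEMA4F holds 2, and the ROBO1 starts hold 2 and 6. Over windows of 300 bases (these 250 and the 50 after the start), 37 of the 42 members matched the RefSeq table by symbol, with 56 promoters in all. GGAA stood on either strand in 51 of the 56 (91.1%), beside 95.5% of the 35116 promoters of the table. The longer letters CCGGAAGT, which contain GGAA, stood on either strand in 0 of the 56 member promoters and in 4.14% of all promoters. The median number of GGAA matches was 2 in the promoters of members called higher and also of those without a call, 4 in the 5 promoters of members called lower, 3 in those of members not tested and 3 over all promoters. These counts describe letters in a window and were not tested.

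Levels are the deposited FPKM values (reads scaled by gene length and library size), so levels of different genes are compared per length. The reads behind them were recovered from the deposited values: 40356843 and 44119732 for the controls, 57270147 and 56503044 for ETS1, so the ETS1 libraries were 1.35 times as deep on average. ETS1 itself was at 0.491 and 0.509 FPKM without the ETS1 vector and at 1.84 and 1.87 with it, where vector and endogenous transcripts are not told apart. Of 6 epithelial markers, KRT8, KRT18 and EPCAM were at a mean of at least 1 FPKM and CDH1, CLDN4 and KRT19 were not, with KRT19 at or under 0.0224 FPKM. KRT8 was higher in both ETS1 libraries (3.91 and 3.87 against 6.48 and 6.59 FPKM), and KRT18 (10.2 and 10.5 against 8.35 and 8.29) and EPCAM (1.37 and 1.36 against 0.915 and 1.12) were lower. The squamous markers KRT5, KRT14 and TP63 were at 0 in both control libraries, and no squamous marker was above 0.0935 FPKM in any library, against the squamous label. Endothelial markers reached at most 0.0513 FPKM. The summed fibroblast markers, of which only COL1A1 reached a mean of 1 FPKM, went from 2.11 and 2.23 to 3.02 and 3.08. The leukocyte marker PTPRC was at or near 0. Of 5 neural markers SYT1 alone reached a mean of 1 FPKM (2.85 and 2.74 against 3.73 and 3.61). MAP2 was lower in both ETS1 libraries (0.559 and 0.552 against 0.409 and 0.425). TUBB3 was at or under 0.111 FPKM, and SOX10 and ELAVL3 were at or under 0.0593 FPKM. The sum of all 5, most of it SYT1, went from 3.53 and 3.41 to 4.27 and 4.22. The part of the epithelial, fibroblast and neural markers in the results was not tested, and in bulk RNA fewer cells expressing a gene and less RNA per cell cannot be told apart.

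A gene was tested where its mean over the 4 libraries was at least 1 FPKM, which 14306 genes and 32 of the 42 members met, and it was called where limma gave a Benjamini-Hochberg adjusted p under 0.05 on the log2(FPKM + 1) scale, over all genes tested. Changes are ETS1 minus control on that scale, which understates changes of low genes. Of the 32 tested members, 14 rose (43.8%) and 3 fell (9.38%), while 30.7% of all tested genes rose and 28.4% fell. The median change of the tested members was 0.09, beside 0.016 for all tested genes. Both ETS1 libraries lay above both controls for 20 of the 32 members and below both for 8, and over all tested genes these shares were 43.1% and 38.9%. In either direction, 59.1% of all tested genes were called. Without ETS1 replicate 1, and again without ETS1 replicate 2, 8 members were called higher in place of 14, and over all tested genes 21.8% and 19.9%. The authors' deposited table, which covers 37 of the members with an adjusted p, calls 12 higher and 5 lower, beside 25.3% and 25.9% of its genes.

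**Figure D1:**
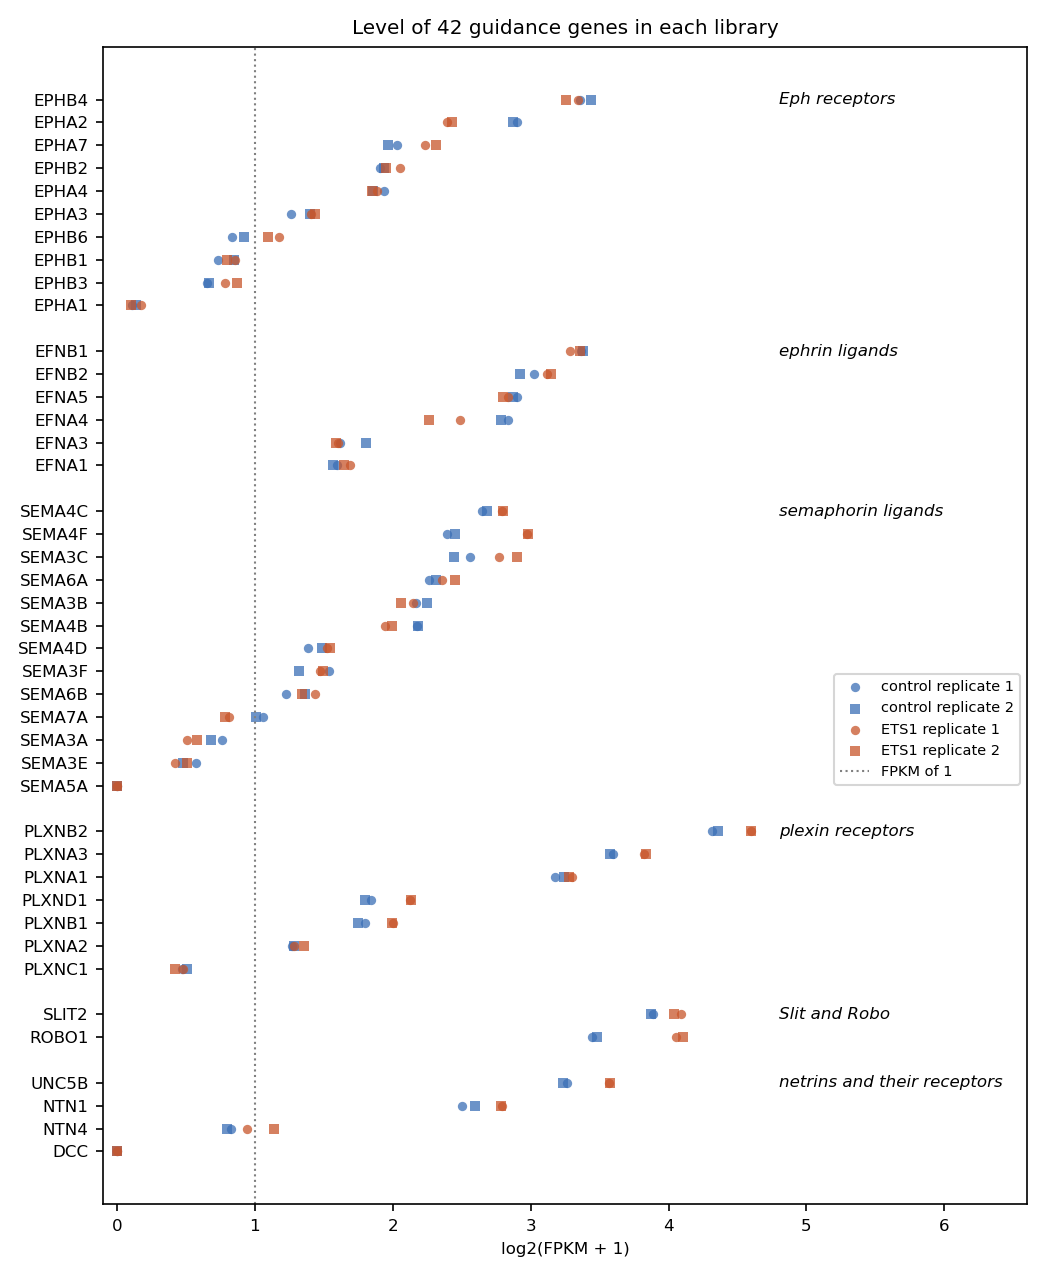
Level of each of the 42 guidance genes in each library, as log2(FPKM + 1) on the horizontal axis, grouped by family and ordered by level, with circles for replicate 1 and squares for replicate 2, control in blue and ETS1 in red. PLXNB2, at 18.9 and 19.5 FPKM in the controls and 23.2 and 23.3 with ETS1, is the most abundant member, and SEMA5A and DCC lie at or near 0.

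**Figure D2:**
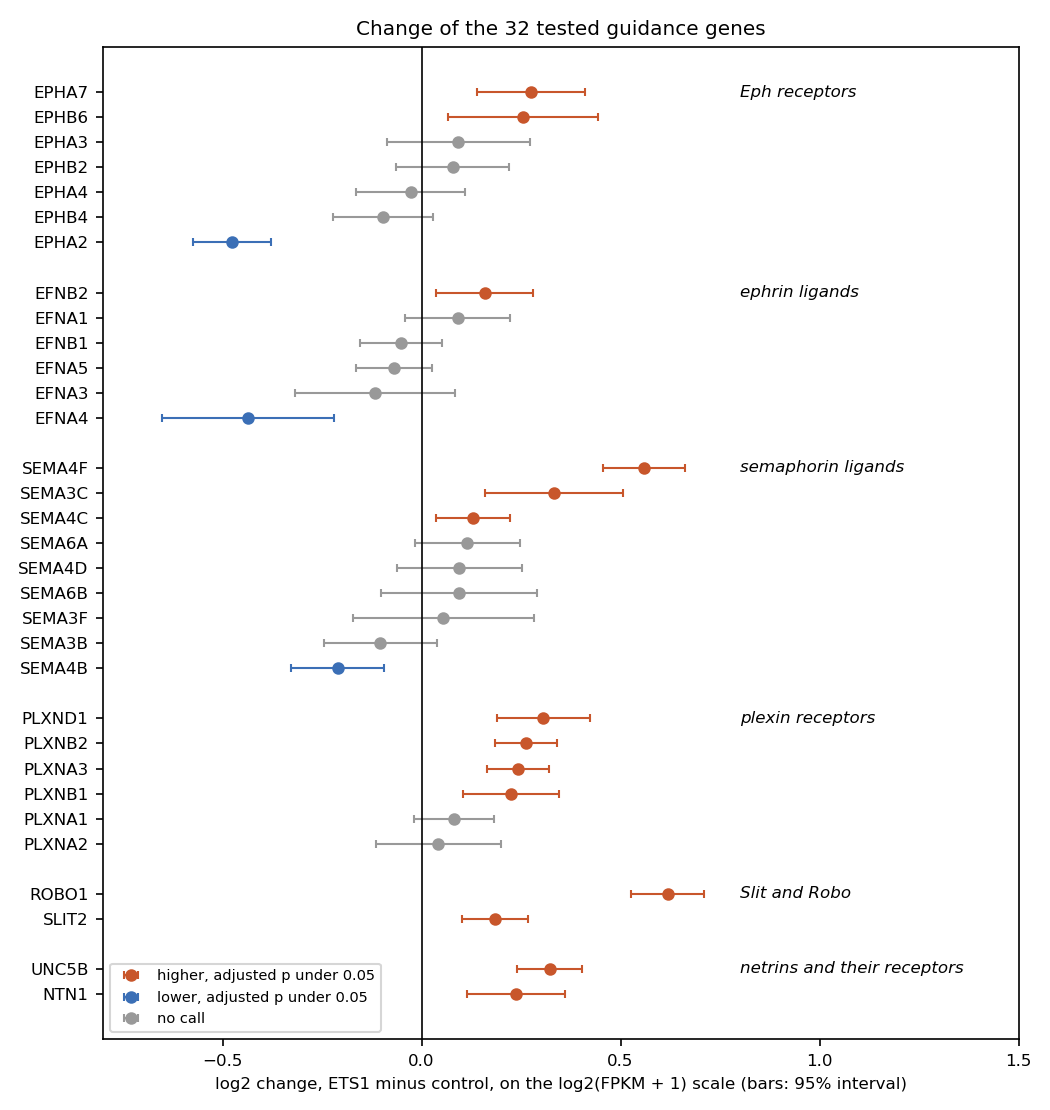
Change of each of the 32 tested members, ETS1 minus control on the log2(FPKM + 1) scale, with 95% intervals from limma, red for members called higher, blue for those called lower and grey for those without a call. ROBO1 at 0.62 and SEMA4F at 0.56 lie farthest to the right, and EPHA2 at -0.48 and EFNA4 at -0.44 farthest to the left.

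Among the Eph receptors, EPHA2 fell by 32.5%, EPHA7 and EPHB6 rose, and the other 4 tested receptors had no call. EPHA2 is the Eph receptor best known from epithelia and carcinomas, where it acts both with and without ephrin binding. EPHA2 was measured at 6.46 and 6.32 FPKM in the controls, and the ETS1 libraries held 4.25 and 4.38. The 2 groups do not overlap, and the gap between them is far wider than the gap within either. Mean ± SD over 2 libraries was 6.39 ± 0.0963 FPKM in the controls and 4.31 ± 0.0949 with ETS1, and the log2 change was -0.48 (95% interval -0.57 to -0.38, limma adjusted p = 0.000978). The call held under all 16 alternatives run.

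EPHA7, a receptor of A ephrins, averaged 3.00 ± 0.119 FPKM in the controls and 3.84 ± 0.200 with ETS1 (all errors of means are SD over 2 libraries), a log2 change of 0.27 (SE 0.0522, limma adjusted p = 0.00974), which did not pass without ETS1 replicate 2 (limma adjusted p = 0.0577). EPHB6, which lacks kinase activity, went from 0.839 ± 0.0752 to 1.19 ± 0.0860 FPKM, a log2 change of 0.25 (limma adjusted p = 0.0339). The EPHB6 call was lost whichever library was left out, with limma adjusted p values of 0.110 and 0.0516 without control replicates 1 and 2, and 0.156 and 0.0789 without ETS1 replicates 1 and 2, and also after quantile normalization (0.0717) and with the length trend removed (0.0609).

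EPHB4, the receptor of EFNB2 in vessels, was the most abundant Eph receptor. Controls gave 9.27 and 9.84 FPKM for EPHB4, and ETS1 libraries gave 9.17 and 8.57. Both ETS1 values lie below both controls, but the nearest values of the groups are closer to each other than replicates are. The means were 9.55 ± 0.402 and 8.87 ± 0.425 FPKM, and the log2 change of -0.10 (95% interval -0.22 to 0.03) had no call (limma adjusted p = 0.148), though it passed with voom on the recovered reads (-0.13, adjusted p = 0.0378) and with the trend on gene length removed (-0.17, limma adjusted p = 0.0348). An exon of SLC12A9 lies antisense to EPHB4, and whether the counting used strand is not given in the sources used here. EPHA3, EPHA4 and EPHB2 changed by 0.09 (95% interval -0.09 to 0.27), -0.03 (-0.16 to 0.11) and 0.08 (-0.06 to 0.22) on the log2 scale, with no call. The sign for EPHA4 turned to 0.014 without control replicate 1, and with length trend and chromosome median both removed it passed as lower (-0.18, limma adjusted p = 0.0269). Leaving out 1 library also moved EPHA3 to between 0.02 and 0.16 (without control replicates 1 and 2), EPHB2 to between 0.03 and 0.13 (without ETS1 replicates 1 and 2) and EPHB4 to between -0.14 and -0.05 (without ETS1 replicates 1 and 2).

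EPHA1, EPHB1 and EPHB3 were under a mean of 1 FPKM and were not tested. EPHB1 was at 0.666 and 0.805 FPKM in the controls and 0.813 and 0.735 with ETS1, where the groups overlap. EPHB3 was at 0.574 and 0.590 against 0.720 and 0.827, where they do not, and the authors' deposited table gives it a log2 change of 0.26 with an adjusted p of 0.152. EPHA1 was at or under 0.129 FPKM in all 4 libraries.

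Of the 6 ephrins, all tested, EFNA4 fell, EFNB2 rose, and EFNA1, EFNA3, EFNA5 and EFNB1 had no call. EFNA4, an ephrin with a lipid anchor, was at 6.16 and 5.88 FPKM in the controls and at 4.61 and 3.79 with ETS1. Both ETS1 libraries are lower than both controls, and the ETS1 libraries differ more from each other than the controls do. The mean fell by 30.2%, from 6.02 ± 0.194 to 4.20 ± 0.579 FPKM, with a log2 change of -0.44 (95% interval -0.65 to -0.22, limma adjusted p = 0.00985). EFNA4 shares exons on the same strand with the annotated gene AL691442.1, as does its neighbour EFNA3, and how reads in shared exons were assigned is not given in the sources used here. The call was lost where all genes with any reads were tested (limma adjusted p = 0.0595).

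EFNB2, a transmembrane ephrin, went from 6.86 ± 0.391 to 7.77 ± 0.132 FPKM, a log2 change of 0.16 (limma adjusted p = 0.0371). This call was lost without control replicate 2, ETS1 replicate 1 or ETS1 replicate 2 (limma adjusted p = 0.0989, 0.10 and 0.156), and in the authors' deposited table its adjusted p is 0.0819. With the median change of its chromosome removed, EFNB2 changed by 0.08 (limma adjusted p = 0.187), and AL138689.2 overlaps its exons on the other strand. EFNB1, the most abundant ephrin, was at 9.37 ± 0.0904 and 9.0 ± 0.370 FPKM, and its log2 change of -0.05 had an interval of -0.15 to 0.05, going to -0.01 without ETS1 replicate 1 and to -0.09 without ETS1 replicate 2. EFNA5 was at 6.40 ± 0.101 and 6.05 ± 0.132 FPKM (log2 change -0.07, interval -0.16 to 0.03). It passed as lower after quantile normalization (-0.13, limma adjusted p = 0.0337), with the chromosome median removed (-0.16, limma adjusted p = 0.0125) and with the length trend removed (-0.13, limma adjusted p = 0.0367), as did EFNB1 with the chromosome median removed (-0.15, limma adjusted p = 0.0209). EFNA1, the ligand most often paired with EPHA2, was at 1.99 ± 0.0397 and 2.18 ± 0.0672 FPKM (log2 change 0.09, interval -0.04 to 0.22), and passed as higher with the length trend removed (0.16, limma adjusted p = 0.0447). EFNA3 changed by -0.12 (interval -0.32 to 0.08). Without control replicate 1 that change was -0.21 (limma adjusted p = 0.0494), and without control replicate 2 it was -0.02, so it rests on which control is kept.

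Among the 13 semaphorins, SEMA4F, SEMA3C and SEMA4C rose, SEMA4B fell, 5 were tested without a call and 4 were not tested. SEMA4F, a membrane-bound class 4 semaphorin, had the largest change of the family. SEMA4F measured 4.25 and 4.47 FPKM in the controls and 6.86 and 6.91 with ETS1. The groups lie far apart, and the ETS1 libraries are almost equal. Its mean rose from 4.36 ± 0.156 to 6.89 ± 0.0403 FPKM (ratio 1.58), and its log2 change was 0.56 (95% interval 0.46 to 0.66, limma adjusted p = 0.000784). Its call held under all 16 alternatives.

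SEMA3C, a secreted semaphorin that signals through neuropilins and plexins, stood at 4.91 and 4.44 FPKM in the controls and at 5.82 and 6.46 with ETS1. Both ETS1 libraries are higher, with replicates of each group spread by about as much as one another. The mean went from 4.67 ± 0.334 to 6.14 ± 0.457 FPKM (ratio 1.31), and the log2 change was 0.33 (95% interval 0.16 to 0.51, limma adjusted p = 0.0116). The call was lost where all genes with any reads were tested (limma adjusted p = 0.0618).

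SEMA4B, another membrane-bound class 4 member, went from 3.53 ± 0.00652 to 2.92 ± 0.107 FPKM, a log2 change of -0.21 (95% interval -0.33 to -0.09, limma adjusted p = 0.0137). It lies on chromosome 15, where the 390 tested genes had a median change of -0.23 and 81.0% of them were lower with ETS1. With the median of its chromosome removed, SEMA4B changed by 0.02 (limma adjusted p = 0.719), and without ETS1 replicate 1 its adjusted p was 0.0820 in the same limma fit. SEMA4C, a ligand of PLXNB2, went from 5.35 ± 0.10 to 5.95 ± 0.00824 FPKM, a log2 change of 0.13 (limma adjusted p = 0.0302). That call was lost whichever library was left out, at limma adjusted p values of 0.0926 and 0.0515 without control replicates 1 and 2 and 0.134 and 0.143 without ETS1 replicates 1 and 2, and in the authors' deposited table its adjusted p is 0.133. SEMA4C changed by 0.04 with the chromosome median removed (limma adjusted p = 0.352) and by 0.06 with the length trend removed (limma adjusted p = 0.226).

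SEMA3B, SEMA3F, SEMA4D, SEMA6A and SEMA6B had no call, with log2 changes from -0.10 (SEMA3B) to 0.12 (SEMA6A). SEMA4D, the ligand of PLXNB1, was at 1.71 ± 0.128 and 1.89 ± 0.0347 FPKM (log2 change 0.10, interval -0.06 to 0.25), and passed as higher with the chromosome median removed (0.20, limma adjusted p = 0.025), but changed by 0.05 without control replicate 1 and by 0.14 without control replicate 2. SEMA6A, a transmembrane ligand of A plexins, was at 3.89 ± 0.109 and 4.30 ± 0.246 FPKM (log2 change 0.12, interval -0.02 to 0.25), and at 0.07 without ETS1 replicate 2. SEMA3B changed by -0.07 without control replicate 2 and by -0.06 without ETS1 replicate 2, and passed as lower with length trend and chromosome median both removed (-0.17, limma adjusted p = 0.0352). The sign for SEMA3F turned, from 0.06 to -0.05, without control replicate 2, and SEMA6B changed by 0.03 and 0.16 without control replicates 1 and 2.

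Of the untested semaphorins, SEMA3A and SEMA7A were lower in both ETS1 libraries. SEMA3A, the founding secreted repellent of axons, was at 0.700 and 0.604 FPKM in the controls and 0.422 and 0.494 with ETS1, and the authors' deposited table gives it a log2 change of -0.45 with an adjusted p of 0.00871. SEMA7A, which is held by a lipid anchor, was at 1.09 and 1.01 against 0.761 and 0.718 FPKM, and the authors' deposited table gives it -0.42 with an adjusted p of 0.0212. SEMA7A lies on chromosome 15 as well. SEMA3E, the ligand of PLXND1, was at 0.488 and 0.396 FPKM in the controls and 0.341 and 0.419 with ETS1, where the groups overlap. SEMA5A was at 0 in both controls and at or under 0.00288 FPKM with ETS1, an estimated 2 reads and 1 read, so no fold is given.

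Of the 7 plexins, 6 were tested, of which 4 rose and 0 fell, beside 30.7% and 28.4% of all tested genes, and the median change was 0.23. PLXNB2, a receptor of class 4 semaphorins, was the most abundant of all 42 genes, with 18.9 and 19.5 FPKM in the controls and 23.2 and 23.3 under ETS1. The groups are well apart. Its mean rose from 19.2 ± 0.444 to 23.2 ± 0.0631 FPKM (ratio 1.21), and its log2 change was 0.26 (95% interval 0.18 to 0.34, limma adjusted p = 0.00232). PLXND1, the receptor of SEMA3E best known from vessels, was at 2.60 and 2.48 FPKM in the controls and 3.36 and 3.38 with ETS1. Each group is tight and the ETS1 libraries are higher. Its mean rose from 2.54 ± 0.0808 to 3.37 ± 0.0142 FPKM (ratio 1.33), and its log2 change was 0.31 (95% interval 0.19 to 0.42, limma adjusted p = 0.00449). Both calls held under every alternative that gave a value.

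PLXNA3, which signals for class 3 semaphorins together with neuropilins, was at 11.1 and 10.9 FPKM in the controls and 13.1 and 13.3 with ETS1. Its replicates are close in both groups, and the groups do not overlap. The mean went from 11.0 ± 0.0925 to 13.2 ± 0.132 FPKM, a log2 change of 0.24 (95% interval 0.16 to 0.32, limma adjusted p = 0.00284). An exon of LAGE3 lies antisense to it. PLXNB1, the receptor of SEMA4D, went from 2.42 ± 0.0791 to 3.00 ± 0.0120 FPKM, a log2 change of 0.22 (limma adjusted p = 0.0125), which did not pass without ETS1 replicate 1 or ETS1 replicate 2 (limma adjusted p = 0.0681 and 0.0665). PLXNA1, at 8.26 ± 0.310 and 8.79 ± 0.0979 FPKM, changed by 0.08 (interval -0.02 to 0.18), and PLXNA2, at 1.42 ± 0.0221 and 1.49 ± 0.0908 FPKM, by 0.04 (interval -0.11 to 0.20), with no call. PLXNA1 changed by 0.05 without control replicate 1, and PLXNA2 by 0.08 and 0.0053 without ETS1 replicates 1 and 2. PLXNC1, a receptor of SEMA7A, was at 0.388 and 0.419 FPKM against 0.395 and 0.338 and was not tested.

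ROBO1, the receptor of Slit ligands, had the largest change of all tested members. It was at 9.88 and 10.1 FPKM in the controls and at 15.6 and 16.2 in the ETS1 libraries. The distance between the groups is many times that between replicates. The mean rose from 10.0 ± 0.181 to 15.9 ± 0.442 FPKM (ratio 1.59), and its log2 change was 0.62 (95% interval 0.53 to 0.71, limma adjusted p = 0.00058), and the call held under all 16 alternatives. Over all tested genes, the 95th percentile of the change was 0.50, which ROBO1 and SEMA4F exceeded among the members.

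SLIT2, a secreted ligand of ROBO1, was second to PLXNB2 in mean level over the 4 libraries, though just below ROBO1 in the mean of the ETS1 libraries, at 13.8 and 13.7 FPKM in the controls and 16.0 and 15.5 with ETS1. Both ETS1 libraries are higher than both controls. The mean went from 13.7 ± 0.0947 to 15.7 ± 0.391 FPKM (ratio 1.15), and its log2 change was 0.18 (95% interval 0.10 to 0.27, limma adjusted p = 0.00761). It did not pass without ETS1 replicate 1 (limma adjusted p = 0.0556). It also did not pass with the median of chromosome 4 removed (0.07, limma adjusted p = 0.109) or with the trend on gene length removed (0.05, limma adjusted p = 0.217).

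UNC5B, a netrin receptor also studied as a dependence receptor, stood at 8.60 and 8.42 FPKM in the controls and at 10.8 and 10.9 with ETS1. The groups do not overlap and replicates are close. The mean rose from 8.51 ± 0.125 to 10.9 ± 0.0510 FPKM (ratio 1.28), and its log2 change was 0.32 (95% interval 0.24 to 0.40, limma adjusted p = 0.00155), and the call held under all 16 alternatives. NTN1, a secreted ligand of UNC5 receptors and DCC, went from 4.86 ± 0.289 to 5.91 ± 0.0344 FPKM, a log2 change of 0.24 (limma adjusted p = 0.0114). It did not pass without ETS1 replicate 1 (limma adjusted p = 0.0561) or ETS1 replicate 2 (limma adjusted p = 0.0526). NTN4, a netrin of basement membranes, was at 0.773 and 0.740 FPKM in the controls and 0.926 and 1.21 with ETS1 and was not tested. The authors' deposited table gives NTN4 a log2 change of 0.35 with an adjusted p of 0.0577. DCC was at 0.00287 FPKM in control replicate 1 and at 0 in the other 3 libraries.

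Set side by side as ligand and receptor, both partners rose for SLIT2 and ROBO1, for NTN1 and UNC5B, and for SEMA4C and PLXNB2. The calls of SLIT2, NTN1 and SEMA4C were each lost under the alternatives given above, and those of ROBO1, UNC5B and PLXNB2 were not lost under any. For EFNA1 and EPHA2 the receptor fell while the ligand had no call, and for SEMA4D and PLXNB1 the receptor rose while the ligand had no call. For EFNB2 and EPHB4 the ligand rose and the receptor had no call. For the A ephrin EFNA4 and EPHA2 both partners fell. These pairs were picked from the members. They leave out receptors and co-receptors among the further family genes, some of which rose and some of which fell. Over all tested members, 8 of 15 receptors rose and 1 fell, with a median change of 0.22, and 6 of 17 ligands rose (35.3%) and 2 fell, with a median of 0.09, beside 30.7% of all tested genes higher and 28.4% lower. Whether receptors and ligands differ was not tested.

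Of 35 further genes of these families and their co-receptors, 13 were tested, of which 5 rose (38.5%) and 4 fell (30.8%), near the shares of 30.7% and 28.4% over all tested genes, with a median change of 0.08. On the same scale, the largest rises among those tested were SEMA6C (9.03 ± 0.376 to 13.4 ± 0.129 FPKM, log2 change 0.52, limma adjusted p = 0.00085), SEMA4A (0.42, limma adjusted p = 0.00413) and the ephrin EFNA2 (0.41, limma adjusted p = 0.00171). The largest falls were those of the repulsive guidance molecules RGMA (9.25 ± 0.0366 to 6.53 ± 0.0990 FPKM, log2 change -0.45, limma adjusted p = 0.00084) and RGMB (-0.35, limma adjusted p = 0.00228) and of the neuropilin NRP2 (-0.30, limma adjusted p = 0.00848). RGMA lies on chromosome 15. Of 50 effectors that act below these receptors, 45 were tested, of which 21 rose (46.7%) and 6 fell (13.3%), beside the same 30.7% and 28.4%, with a median change of 0.12. Among those tested, on the log2(FPKM + 1) scale, the largest rises were SDCBP, a scaffold that binds B ephrins (0.54, limma adjusted p = 0.00514), ROCK1, a kinase that acts on the cytoskeleton (0.48, limma adjusted p = 0.000707), and NGEF, an exchange factor that binds EPHA4 (0.48, limma adjusted p = 0.00264). The largest falls were ABL1 (-0.35, limma adjusted p = 0.00132), DPYSL2, a mediator of SEMA3A signals (-0.35, limma adjusted p = 0.00519), and LIMK1 (-0.27, limma adjusted p = 0.00406). Under a mean of 1 FPKM and named after their values were seen, DPYSL3, a relative of DPYSL2, was at 0.276 and 0.272 FPKM in the controls and 1.28 and 1.41 with ETS1, and the kinase FES at 1.15 and 1.05 against 0.482 and 0.547. The authors' deposited table gives DPYSL3 a log2 change of 2.24 (adjusted p = 1.35e-31) and FES one of -1.04 (adjusted p = 1.65e-06).

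**Figure D3:**
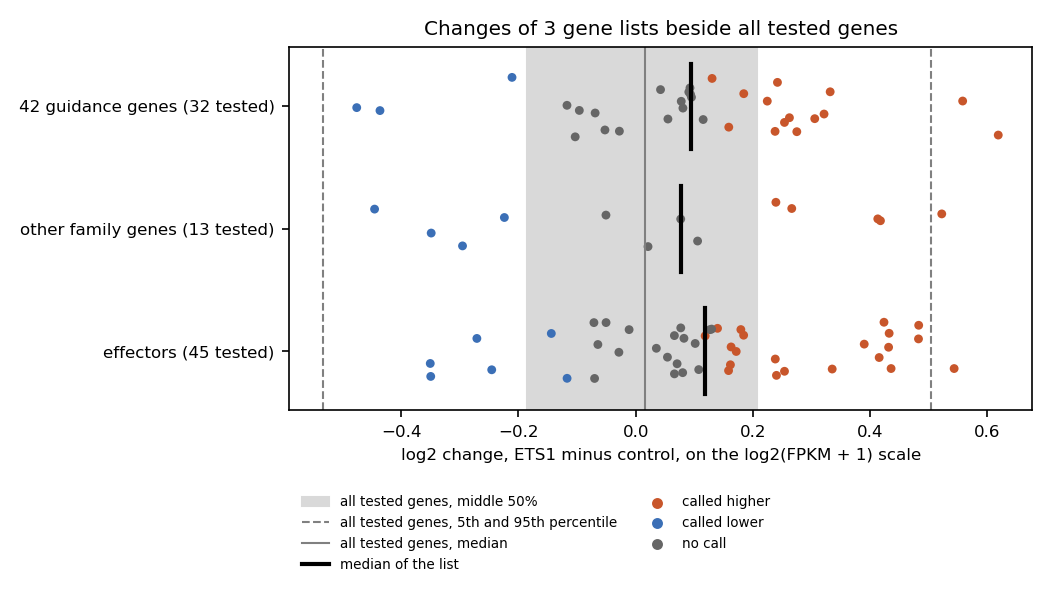
Change of each tested gene (points, horizontal axis, log2(FPKM + 1) scale) in the 42 guidance genes, the further family genes and the effectors, with each list's median as a black bar and the middle 50% of all tested genes in grey. The medians are 0.09, 0.08 and 0.12, beside 0.016 for all tested genes, and each list holds genes called in both directions.

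The change of a gene moved with its length in these libraries. In 4 groups of tested genes of rising length, the median change went from -0.12 in the shortest to -0.03, 0.05 and 0.12 in the longest. The tested members are long, with a median inferred length of 6433 bases beside 4038 for all tested genes, and the trend at their lengths had a median of 0.08, close to their own median change of 0.09. With the trend removed, the members' median was 0.04, with 10 of the 32 called higher and 5 lower, beside 27% and 28.5% of all tested genes under the same setting. PLXNB1 lost its call (0.09, limma adjusted p = 0.153). So did EFNB2 (0.13, limma adjusted p = 0.0664), EPHB6 (0.20, 0.0609), SEMA4C (0.06, 0.226) and SLIT2 (0.05, 0.217). EFNA1 gained a call as higher, and EPHB4 and EFNA5 gained calls as lower. Among the members without a call, the signs of SEMA4D, SEMA6A, PLXNA1 and PLXNA2 turned. PLXNA3, PLXNB2 and PLXND1 kept their calls at 0.14, 0.17 and 0.17 (limma adjusted p = 0.0163, 0.00978 and 0.0281), as did NTN1 at 0.16 (limma adjusted p = 0.0428) and EPHA7 at 0.17 (limma adjusted p = 0.0426). ROBO1 and SEMA4F changed by 0.47 and 0.53 with the trend removed, and EPHA2 by -0.49.

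**Figure D4:**
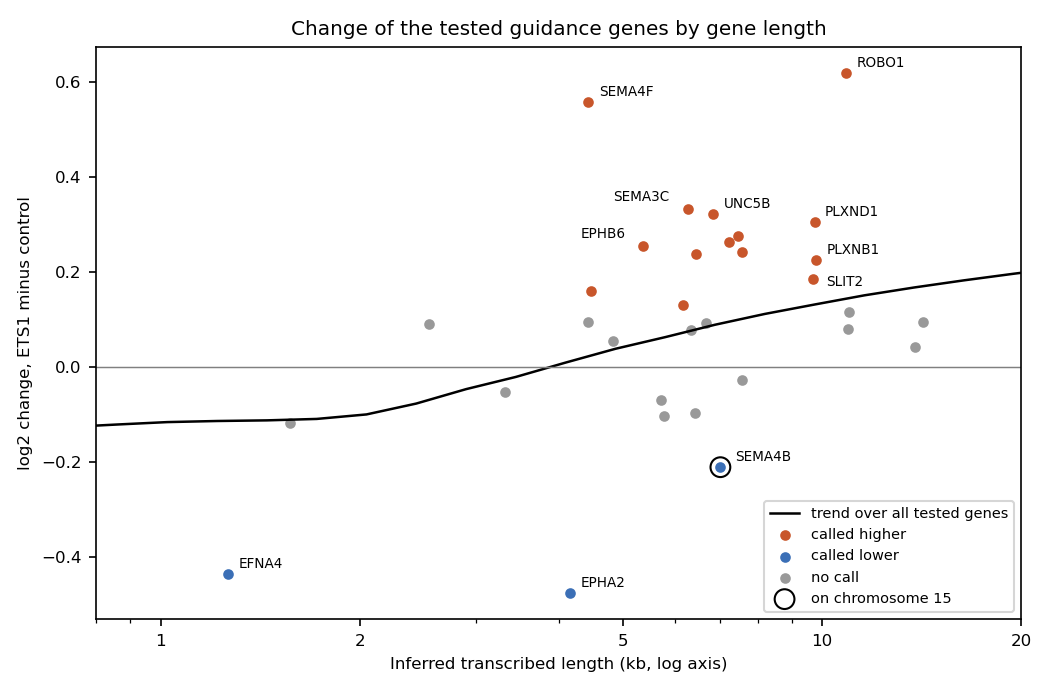
Change of each tested member (vertical axis, log2(FPKM + 1) scale) against its inferred transcribed length in kilobases (log axis), with the trend over all tested genes as a line. ROBO1, SEMA4F and UNC5B lie well above the line, EPHA2 and EFNA4 well below it, and SLIT2 close to it. SEMA4B, circled, is the tested member on chromosome 15.

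Of the 17 called members, 6 kept their call and direction under every alternative that gave a value: EPHA2, SEMA4F, PLXNB2, PLXND1, ROBO1 and UNC5B. Among the called members, 2 changed sign under an alternative: SEMA4B with the chromosome median removed and SLIT2 with the length trend and chromosome median removed together. With both removed, PLXNA3 changed by 0.05 (limma adjusted p = 0.21) and EPHA7 by 0.12 (limma adjusted p = 0.0833), and neither was called, while UNC5B changed by 0.20 (limma adjusted p = 0.00435). EPHB6 was larger on scales that damp low values less, at 0.46 with a pseudocount of 0.1 in place of 1.

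**Figure D5:**
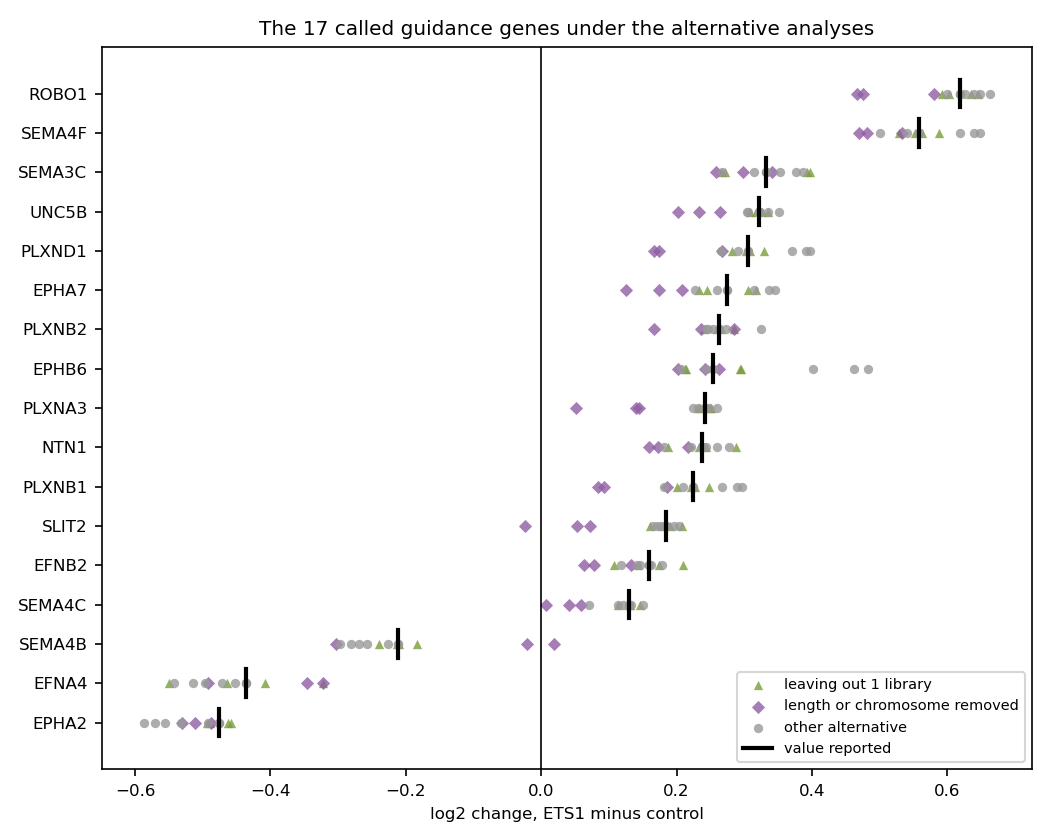
Change of each of the 17 called members under each alternative (points, horizontal axis, log2 scale), with the reported value as a black bar. The values for ROBO1 run from 0.47 to 0.66 and those for EPHA2 from -0.59 to -0.46, while those for SLIT2 and SEMA4B reach across 0.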

How the data were processed

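Bulk RNA-seq of 4 TE5 libraries was analysed from the deposited values. The authors used HISAT2, HTSeq and DESeq2 with the build hg38/GRCh38, per the submitters' processing notes; versions, annotation and strand use are not given in the sources used here. The authors deposited FPKM for all genes and, per the file headers, a DESeq2 table with the mean normalized count (a signal), log2 fold change and adjusted p-value. The authors' table holds genes with a mean FPKM of about 0.5 or more, and 969 of its 16652 genes have no adjusted p.

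FPKM was tested as log2(FPKM + 1) with limma 3.58.1 (R 4.3.3, intensity trend, group term, 2 residual degrees of freedom, two-sided), for genes averaging 1 FPKM or more, with Benjamini-Hochberg adjustment over all 14306. An exact permutation test of 2 libraries against 2 cannot go below p = 0.333, so none was used for single genes. Scripts were tested on simulated data. Whole reads were recovered from FPKM and the mean normalized count: 99.3% of the values of 2885 genes with a mean under 100 fell within 0.05 of a whole number, and tested members had 131 to 9962 reads per library. limma voom was run on these reads as an alternative. Read totals give depth and inferred lengths; 78.0% of 13394 inferred lengths lay within 2% of the GENCODE 29 exon union. Replicates differed beyond counting noise (chi-square of 3.91 per gene in both groups).

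The members and lists were chosen with earlier results of these data known. Values in every library are given for called members with an absolute log2 change of at least 0.3 and for the 6 most abundant members; from each further list at most the 3 largest called changes in each direction are named. Alternatives were another pseudocount, other filters, quantile and median-ratio scaling, a replicate block, voom, the authors' DESeq2 results, the threshold, removal of the chromosome median or the length trend, and leaving out each library. Removing length trend and chromosome median together was added after seeing the data. Some items are not reported here.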

Additional observations from a re-analysis of the deposited data

How the results depend on the processing

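With 2 libraries per group, 4 in all, the calls of small changes are limited by the spread, and the 10 members under a mean of 1 FPKM were left untested by the filter, among them SEMA3A with 227 to 265 reads per library. Of the 17 called members, 15 kept their direction under the 16 alternatives, and 8 of the 15 members without a call passed under at least 1 of them. The 14 members called higher became 9 with length trend and chromosome median removed together and 8 at a threshold of 0.01, and ranged from 8 to 12 with 1 library left out. The 3 called lower became 5 with the length trend removed, 5 with both removed and 5 in the authors' deposited table, and ranged from 2 to 4 with 1 library left out. Of the 11993 genes in the fit with both removed, 29.1% were higher and 30% lower. The members' share of rises, 9 of 32, was then no longer above that of all genes. At a threshold of 0.01, 18.6% of all tested genes were higher and 19% lower, beside 8 and 2 of the 32 members. With a mean FPKM of at least 5, the further family genes called higher went from 5 of 13 tested to 2 of 5. The effectors called higher went from 21 of 45 tested to 13 of 30, beside 31.2% of all genes tested at that filter. With any 1 library left out, fewer effectors and fewer of all tested genes were called higher. The members' median change of 0.09 became 0.14 with a pseudocount of 0.1, 0.17 at a mean FPKM of at least 5, 0.055 after quantile normalization, 0.13 with voom, 0.048 with the chromosome median removed, 0.036 with the length trend removed and 0.0087 with both removed, and ranged from 0.10 to 0.14 with 1 library left out. Fewer genes are tested at a mean of 5 FPKM; otherwise the cause was not tested. Among single members, the sign turned for EPHA4 without control replicate 1 (0.014, from -0.070 to 0.014 over the libraries left out), SEMA3F without control replicate 2 (-0.054, from -0.054 to 0.16), SEMA4B with the chromosome median removed (0.019), SEMA4D with the length trend removed (-0.075), SEMA6A with the trend or both removed (-0.030, -0.082), PLXNA1 likewise (-0.064, -0.072), PLXNA2 with the chromosome median, the trend or both removed (-0.013, -0.12, -0.15), and EPHB2 and SLIT2 with both removed (-0.022 and -0.024).

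Libraries with the same replicate number did not deviate together (correlation of deviations from the group means -0.0456), so the numbers were not taken as pairs. With the replicate block, 11 of the 32 tested members were called higher and 3 lower. Of 13 further family genes, 4 were higher and 4 lower, and of 45 effectors 19 were higher and 4 lower. Over all tested genes the block gave 25.9% higher and 25% lower, beside 30.7% and 28.4% without it. The block took the calls of EPHB6 (limma adjusted p = 0.0718), EFNB2 (0.0695) and SEMA4C (0.0731).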
